A study of Mus musculus with 8 samples.

Results

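NF-kB is a family of transcription factors, and the 42 genes described here encode its subunits, their inhibitors, the kinases that release them and the receptors and adaptors that feed those kinases. The genes were listed by name for their role in the pathway, but with earlier results of these data known. All 42 were found among the 47311 genes with a matched transcript. Their RNA was measured in bulk in LSK cells, the lineage-negative, Sca1-positive and Kit-positive fraction of mouse bone marrow that holds the blood stem cells and the earliest progenitors. The 8 libraries came from 2 old Asxl2 knockout (KO) mice, 2 young KO mice, 2 old wild-type (WT) mice and 2 young WT mice. Old mice were over 1 year of age and young mice were 8 to 12 weeks old. Asxl2 encodes a chromatin protein that acts with the deubiquitinase Bap1. Every KO mouse had a WT littermate of its own age in the study, which makes 4 litters, and littermates shared 1 of the 2 batches, so that every group had 1 mouse in each batch. How the knockout allele was made, the sex of the mice and the cells the KO marrow still held are not given in the sources used here.

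In resting cells NF-kB dimers are held inactive by IkB proteins. Signals from Tnf receptors, through Tradd, Ripk1, Traf2 and the ubiquitin ligases Birc2 and Birc3, and from Toll-like and interleukin-1 receptors, through Myd88, the Irak kinases and Traf6, converge on the kinase Map3k7 with its Tab partners and then on the IkB kinase complex of Chuk, Ikbkb and Ikbkg. That complex marks IkB for destruction, the freed dimers switch on genes that include their own inhibitors Nfkbia and Tnfaip3, and a separate route through the kinase Map3k14 matures Nfkb2. In blood stem and progenitor cells the pathway is known for its part in survival, in the balance of dormancy and division and in the response of the marrow to inflammation.

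Part of the family is controlled by its own product, so start-site windows of the members were searched for the kappa B site that NF-kB dimers bind. The windows hold 250 bases before and 50 bases after an annotated start (RefSeq sequence, build GRCm38.p6), 300 bases in all, and 36 of the 42 members had at least 1. The kappa B consensus, a pattern of 10 or more letters with degenerate positions and therefore given by name, was searched on both strands. It occurred in the windows of 12 of the 36 members (33.3%), against 5.14% of 27025 genes and 4.51% of 32851 windows. A looser pattern that contains every match of the consensus, GGG and CC with any 5 bases between them on either strand, occurred in 29 of the 36 members (80.6%), against 53.5% of genes and 50.8% of windows. The 6 windows printed here belong to 4 inhibitors (Nfkbia, Nfkbie, Tnfaip3 and its partner Tnip1), a subunit (Nfkb2) and a nuclear IkB protein (Bcl3), and were picked after the values were seen because their genes carry matches and recur in the results. Each is written 5′ to 3′ along the gene, with consensus matches on either strand in capitals and overlapping matches merged.
Nfkbia, chr12:55492598-55492897, minus strand: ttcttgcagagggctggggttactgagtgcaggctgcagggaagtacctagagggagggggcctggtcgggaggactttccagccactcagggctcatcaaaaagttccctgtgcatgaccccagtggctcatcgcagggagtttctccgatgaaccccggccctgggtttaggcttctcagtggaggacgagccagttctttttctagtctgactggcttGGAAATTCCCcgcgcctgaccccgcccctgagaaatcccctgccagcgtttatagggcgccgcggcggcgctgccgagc
Tnfaip3, chr10:19015361-19015660, minus strand: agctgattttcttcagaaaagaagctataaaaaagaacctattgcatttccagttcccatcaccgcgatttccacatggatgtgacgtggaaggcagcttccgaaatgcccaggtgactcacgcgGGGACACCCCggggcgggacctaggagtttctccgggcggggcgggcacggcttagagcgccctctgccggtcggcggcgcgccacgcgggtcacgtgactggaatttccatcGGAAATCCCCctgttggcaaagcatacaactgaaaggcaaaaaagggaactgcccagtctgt
Nfkb2, chr19:46304487-46304786, plus strand: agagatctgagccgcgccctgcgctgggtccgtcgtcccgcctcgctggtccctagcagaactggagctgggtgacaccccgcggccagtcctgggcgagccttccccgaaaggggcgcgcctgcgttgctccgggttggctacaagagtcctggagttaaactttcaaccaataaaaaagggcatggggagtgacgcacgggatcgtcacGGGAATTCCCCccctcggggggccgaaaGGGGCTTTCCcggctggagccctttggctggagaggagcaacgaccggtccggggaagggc
Tnip1, chr11:54962891-54963190, minus strand: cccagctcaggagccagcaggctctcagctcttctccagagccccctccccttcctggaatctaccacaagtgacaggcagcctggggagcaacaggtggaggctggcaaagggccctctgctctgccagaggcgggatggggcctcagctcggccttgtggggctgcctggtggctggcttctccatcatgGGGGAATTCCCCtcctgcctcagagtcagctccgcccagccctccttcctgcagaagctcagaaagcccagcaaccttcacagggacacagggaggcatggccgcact
Nfkbie, chr17:45555450-45555749, plus strand: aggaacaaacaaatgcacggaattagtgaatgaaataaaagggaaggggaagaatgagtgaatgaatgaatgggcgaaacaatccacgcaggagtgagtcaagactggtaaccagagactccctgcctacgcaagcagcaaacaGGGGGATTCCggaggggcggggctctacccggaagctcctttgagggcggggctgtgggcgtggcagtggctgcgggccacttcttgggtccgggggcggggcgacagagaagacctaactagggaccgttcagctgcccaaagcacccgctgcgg
Bcl3, chr7:19822706-19823005, minus strand: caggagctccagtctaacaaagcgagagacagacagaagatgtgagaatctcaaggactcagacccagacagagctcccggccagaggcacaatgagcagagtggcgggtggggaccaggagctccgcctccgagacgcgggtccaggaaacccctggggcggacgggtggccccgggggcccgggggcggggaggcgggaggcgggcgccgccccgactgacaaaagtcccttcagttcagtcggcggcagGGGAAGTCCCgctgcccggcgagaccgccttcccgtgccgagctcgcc
The Nfkbia match began 29 bases before the start site and the Nfkbie match 106 bases before it. Tnfaip3 held matches 125 and 12 bases before its start, Nfkb2 held merged matches that began 39 bases before its start and another 11 bases before it, and the merged Tnip1 match began 58 bases before its start. The Bcl3 match began at base 3 of the transcript. Relb, Nfkb1, Nfkbiz, Tradd, Ikbkb and Tab1 had no window to search.

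The libraries held 45737972 to 80388500 estimated counts. Asxl2 stood at 4.63 to 5.63 TPM in the 4 KO libraries, against 23.0 to 30.8 TPM in the 4 WT libraries (log2 fold change -2.10, SE 0.17, edgeR adjusted p = 0.000408), which matched the genotype labels. The genes that define the gate were present in every library. Ly6a (Sca1) stood at 266 to 661 TPM in KO and 149.6 to 276 TPM in WT, and Kit at 63.4 to 161 TPM in KO and 133 to 547 TPM in WT. Summed over their list, LSK markers came to 1618 to 2271 TPM in KO and 2141 to 3548 TPM in WT. The libraries differed in how strongly level depended on transcript length: regressed on log2 length, log2 TPM had a slope of -0.82 to -0.56 in KO, against -0.53 to -0.25 in WT libraries, and the -0.25 was that of young WT mouse 1. Summed over their lists, erythroid markers came to 94.1 to 613 TPM in KO and 278 to 1299 TPM in WT, neutrophil markers to 71.2 to 1592 TPM in KO and 12.7 to 1102 TPM in WT, and monocyte, macrophage and dendritic markers to 141 to 241 TPM in KO and 74.9 to 184 TPM in WT. B-cell markers summed to 87.1 to 104 TPM in KO and 81.6 to 97.4 TPM in WT, T and NK markers to 75.0 to 139 TPM in KO and 93.3 to 114 TPM in WT, and stroma and endothelial markers to 45.3 to 57.6 TPM in KO and 66.3 to 104 TPM in WT. Igll1 of the B-cell list and Gzma of the T and NK list were listed at 0 in 3 libraries each, and Cdh5 of the endothelial list in 1. Xist was at 3.33 TPM in old KO mouse 1 and 3.61 TPM in its WT littermate, old WT mouse 1, and at no more than 0.0612 TPM in the other 6. This litter thus stood apart from the rest, and results are also given without it. It was an old litter and no young litter had Xist at that level, so what sets it apart is not balanced over age. The sex of the mice, not given in the sources used here, was not tested.

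All 42 members were expressed. Averaged over the 8 libraries, TPM, which are scaled for transcript length, put Irak1 at the top with 218, followed by Nfkbia with 203, the linear-ubiquitin deubiquitinase Otulin with 130.4, Rela with 127, Nfkb1 with 117 and Tradd with 114. At the bottom were Tab2 with 5.71, Tab3 with 3.23, Rel with 2.98 and the nuclear IkB protein Nfkbiz with 2.95. Of the 41 pairs of neighbours in this order only 2, Nfkbia over Otulin and Tab2 over Tab3, lay farther apart than 1 SD over the 8 libraries, so most neighbouring ranks could not be told apart. Among the subunits Rela had the highest gene-level TPM. That of Nfkb1 came largely from a retained-intron transcript, and its coding transcripts averaged 16.5 TPM in KO and 21.7 TPM in WT mice, near the 13.3 TPM in KO and 20.8 TPM in WT mice of Nfkb2. Young WT mouse 1 had the highest level of 24 of the 42 members and old KO mouse 1 the lowest level of 26. The 42 levels summed to 1495 to 2146 TPM in the KO libraries and to 2105 to 2607 TPM in the WT libraries. In bulk RNA, fewer cells of a type and less RNA per cell cannot be told apart, and this holds for every difference that follows.

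**Figure D1:**
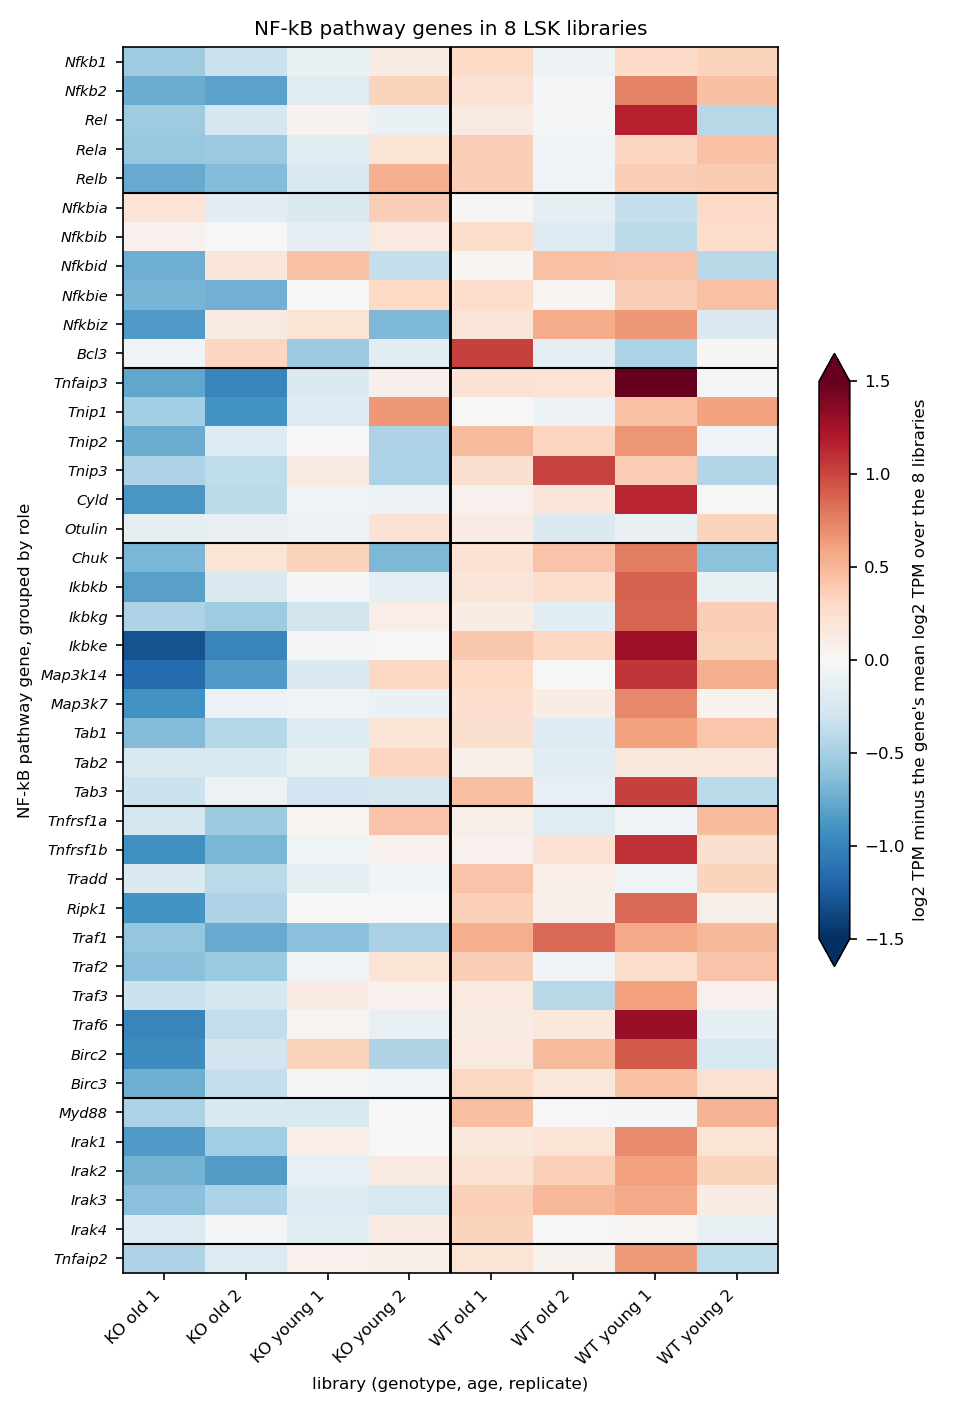
Levels of the 42 NF-kB pathway genes in the 8 libraries, as log2 TPM minus the gene's mean over the libraries; rows are genes grouped by role, columns are mice, with KO left of WT. Old KO mouse 1 is the lowest library for 26 genes and young WT mouse 1 the highest for 24.

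KO against WT was compared over both ages, with 4 mice a side and age and batch in the model. In KO mice the pathway genes leaned low: 12 of the 42 fell, none rose, and 30 did not pass the test (edgeR quasi-likelihood test, adjusted p under 0.05 over all 25543 genes tested). The genes that fell were the receptor Tnfrsf1b, the adaptors Traf1 and Ripk1, the ligases Birc2 and Birc3, the kinases Ikbkb, Ikbke and Map3k14 with the scaffold Ikbkg, Irak2 and Irak3, and the inhibitor Tnfaip3. No Rel subunit and no IkB gene passed, although Nfkb2 (adjusted p = 0.0545) and Rela (adjusted p = 0.0594) were close to the threshold in the same edgeR test. Over all genes 9.98% were called, 6.78% as lower and 3.19% as higher, and among the 11279 protein-coding genes with a mean of at least 2 TPM 14.2% were called lower and 3.65% higher. The members' share of 28.6% was thus read against a background in which lower calls were already common. Fold changes were negative for 38 of the 42 members with a median of -0.39, against a median of -0.20 and 68.1% negative among those protein-coding genes, and a median of 0.10 over all genes. Without an adjustment 27 members had p under 0.05, as did 29.1% of all genes. DESeq2 called 23 members and 13.6% of all genes lower, and limma on log2(TPM + 1), a scale on which the median of all genes was -0.01, called 10 members and 6.82% of all genes lower.

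**Figure D2:**
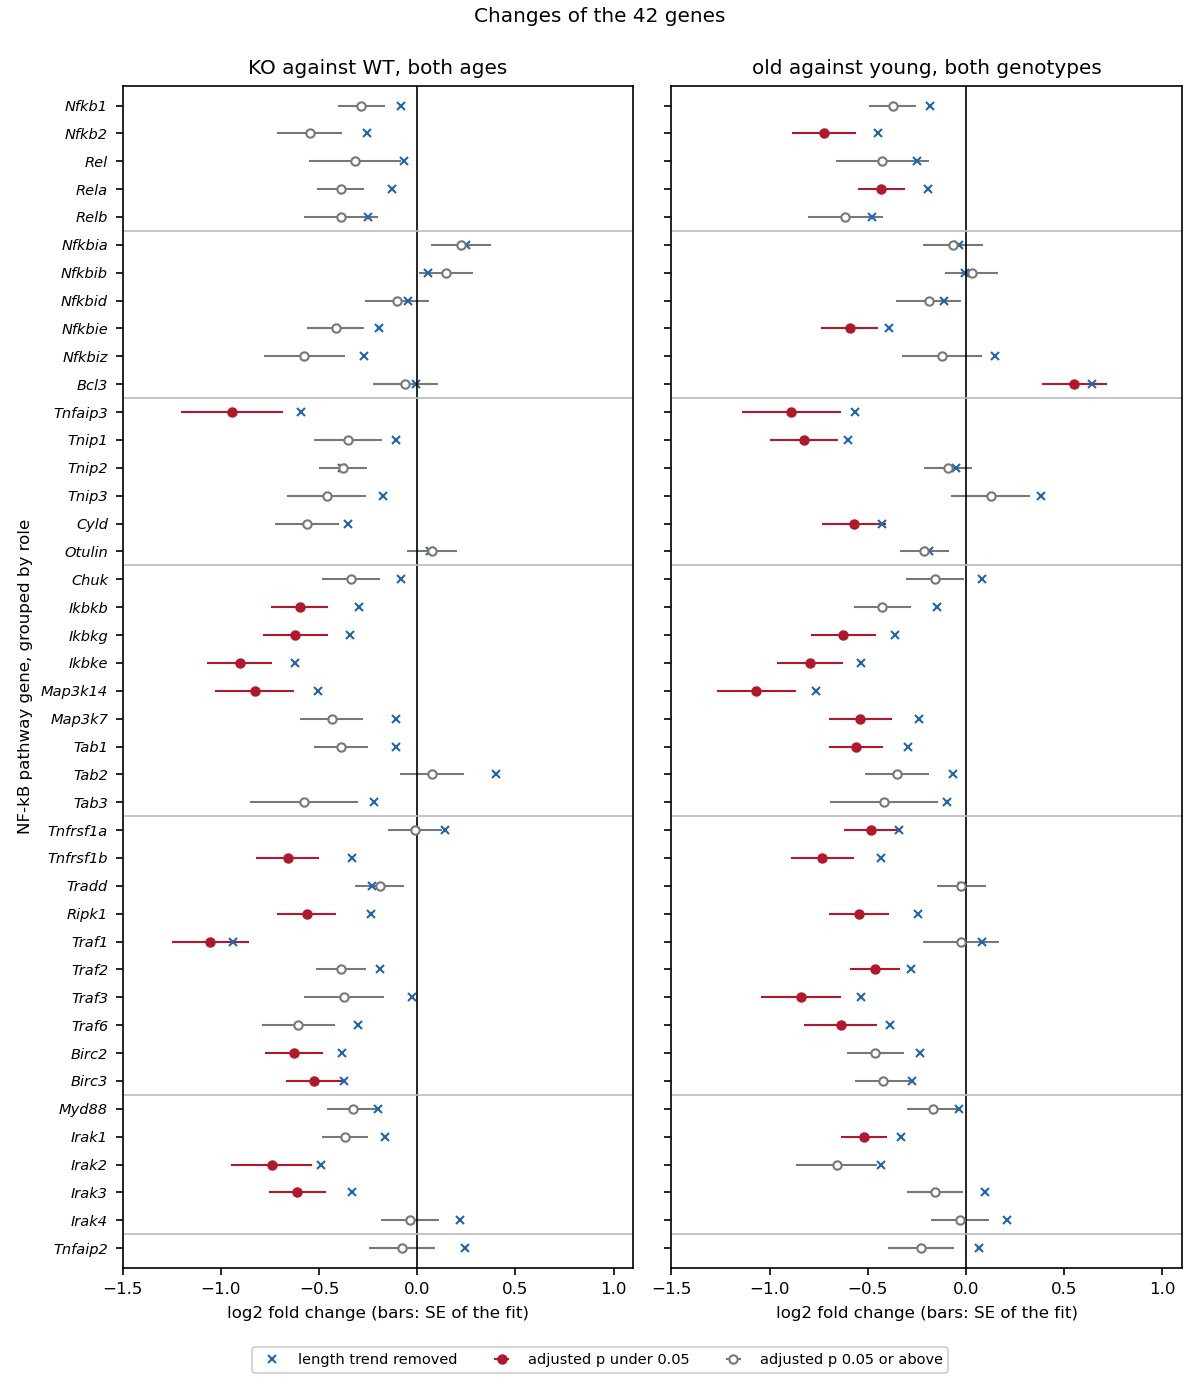
Log2 fold changes of the 42 genes by role, KO over WT on the left and old over young on the right, with SE bars from edgeR fits to 8 mice; filled red points have an adjusted p under 0.05 and open grey points do not. Blue crosses give the fold change after the trend on transcript length was removed, and most lie closer to 0 than the points.

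The Rel subunits, which bind DNA, had negative fold changes in 5 of 5 cases and 0 calls. Rela, the main activating subunit, had 83.1 and 84.2 TPM in the old KO mice and 109 and 142 TPM in the young KO mice, against 159 and 119 TPM in the old WT mice and 153 and 166 TPM in the young WT mice. Nfkb1, the precursor of p50, had 79.3 and 91.8 TPM in the old KO mice and 107 and 123 TPM in the young KO mice, against 140.5 and 109 TPM in the old WT mice and 140.0 and 145 TPM in the young WT mice. KO and WT overlapped for each gene in that young KO mouse 2 lay above old WT mouse 2. Their fold changes were -0.39 (SE 0.12, edgeR adjusted p = 0.0594) for Rela and -0.28 (SE 0.12, edgeR adjusted p = 0.138) for Nfkb1. Nfkb2, the precursor of p52, had 9.57 and 9.19 TPM in the old KO mice and 14.2 and 20.2 TPM in the young KO mice, against 18.7 and 15.8 TPM in the old WT mice and 26.9 and 21.9 TPM in the young WT mice. Relb, the partner of p52, had 10.7 and 11.5 TPM in the old KO mice and 15.5 and 26.5 TPM in the young KO mice, against 23.4 and 17.4 TPM in the old WT mice and 23.4 and 23.8 TPM in the young WT mice. Rel, known for its part in lymphocytes, had 1.92 and 2.32 TPM in the old KO mice and 2.89 and 2.59 TPM in the young KO mice, against 3.06 and 2.72 TPM in the old WT mice and 6.22 and 2.09 TPM in the young WT mice. For Nfkb2 and Relb both old KO mice were under every WT mouse and young KO mouse 2 lay among or above them, and for Rel the groups were interleaved. The fold changes were -0.55 (SE 0.16, edgeR adjusted p = 0.0545) for Nfkb2, -0.39 (SE 0.19, edgeR adjusted p = 0.201) for Relb and -0.32 (SE 0.24, edgeR adjusted p = 0.398) for Rel.

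Among the 6 IkB genes no call was made and the signs were mixed, 2 positive and 4 negative. Nfkbia, the inhibitor of the fast feedback loop, had 231 and 178 TPM in the old KO mice and 173 and 258 TPM in the young KO mice, against 202 and 183 TPM in the old WT mice and 156 and 245 TPM in the young WT mice. The groups overlapped throughout, and Nfkbia had the highest fold change of the 42, 0.22 (SE 0.15, edgeR adjusted p = 0.362). Nfkbib, a related inhibitor, averaged 80.3 ± 6.89 TPM in KO and 80.3 ± 18.1 TPM in WT mice (SD, n = 4 each). Nfkbie, another cytoplasmic inhibitor, averaged 37.9 ± 13.4 TPM in KO and 53.7 ± 6.28 TPM in WT mice (SD, n = 4 each). The nuclear IkB proteins Bcl3, Nfkbid and Nfkbiz, which tune the dimers on DNA, had fold changes of -0.06, -0.10 and -0.57.

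In the A20 group, which holds deubiquitinases of the signalling complexes and the Tnip partners of A20, 1 of 6 genes fell. Tnfaip3, which encodes A20, had 3.30 and 2.85 TPM in the old KO mice and 4.90 and 5.99 TPM in the young KO mice, against 6.62 and 6.52 TPM in the old WT mice and 16.1 and 5.58 TPM in the young WT mice. Young WT mouse 1 stood far above the others, and KO and WT overlapped only in that young KO mouse 2 exceeded young WT mouse 2. Tnfaip3 had a log2 fold change of -0.94 (SE 0.26, edgeR adjusted p = 0.0427). Cyld, a deubiquitinase of the same complexes, averaged 9.30 ± 2.26 TPM in KO and 15.6 ± 6.64 TPM in WT mice (SD, n = 4 each), and all 4 KO mice lay below all 4 WT mice, with a log2 fold change of -0.56 (SE 0.16, edgeR adjusted p = 0.0523). The A20 partners Tnip1, Tnip2 and Tnip3 had fold changes of -0.35, -0.38 and -0.46, and Otulin had 0.08; none passed the test.

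The kinase group held 4 of the 12 calls among its 9 genes. Ikbke, an IkB kinase relative known for its part in interferon induction, had 8.64 and 10.7 TPM in the old KO mice and 20.9 and 21.3 TPM in the young KO mice, against 28.4 and 26.6 TPM in the old WT mice and 51.9 and 27.1 TPM in the young WT mice. All 4 KO mice were below all 4 WT mice, and the old KO mice were lowest. This gave a log2 fold change of -0.90 (SE 0.17, edgeR adjusted p = 0.0162). Map3k14, the NF-kB-inducing kinase of the separate route, had 3.29 and 4.05 TPM in the old KO mice and 6.29 and 9.01 TPM in the young KO mice, against 8.93 and 7.33 TPM in the old WT mice and 15.3 and 10.6 TPM in the young WT mice. Young KO mouse 2 lay among the WT values and the other 3 KO mice below them, with a log2 fold change of -0.83 (SE 0.20, edgeR adjusted p = 0.0319). Ikbkb, the catalytic kinase of the canonical route, had 42.6 and 64.2 TPM in the old KO mice and 73.6 and 67.7 TPM in the young KO mice, against 85.0 and 89.7 TPM in the old WT mice and 138 and 69.2 TPM in the young WT mice. Ikbkg, the scaffold also called NEMO, had 26.5 and 25.2 TPM in the old KO mice and 30.1 and 38.9 TPM in the young KO mice, against 39.4 and 32.3 TPM in the old WT mice and 66.5 and 47.0 TPM in the young WT mice. Chuk, the second catalytic kinase, had 16.6 and 31.0 TPM in the old KO mice and 34.1 and 16.8 TPM in the young KO mice, against 31.2 and 35.9 TPM in the old WT mice and 45.5 and 17.5 TPM in the young WT mice. For Ikbkb and Ikbkg 3 of the 4 KO mice lay under every WT mouse, for Chuk KO and WT were interleaved, and young WT mouse 1 was the highest library for each. Ikbkb had a log2 fold change of -0.60 (SE 0.15, edgeR adjusted p = 0.0321) and Ikbkg a log2 fold change of -0.62 (SE 0.17, edgeR adjusted p = 0.041), while Chuk had a log2 fold change of -0.34 (SE 0.15, edgeR adjusted p = 0.156) and did not pass. Map3k7, which activates the complex, had -0.44, and its partners Tab1, Tab2 and Tab3 had -0.39, 0.07 and -0.58, with no call among these 4.

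Of the 10 Tnf receptor, Traf and Birc genes 5 fell and all 10 fold changes were negative. Traf1, an adaptor that pairs with Traf2 and is itself a known NF-kB target, had 7.02 and 6.23 TPM in the old KO mice and 6.80 and 7.51 TPM in the young KO mice, against 15.4 and 18.9 TPM in the old WT mice and 15.6 and 14.7 TPM in the young WT mice. The groups were far apart: the highest KO mouse was at 7.51 TPM and the lowest WT mouse at 14.7 TPM, and old and young mice lay together. The fold change was -1.05 (SE 0.20, edgeR adjusted p = 0.0162), the most negative of the 42. Tnfrsf1b, the second Tnf receptor, had 19.3 and 22.6 TPM in the old KO mice and 35.0 and 38.2 TPM in the young KO mice, against 38.1 and 42.6 TPM in the old WT mice and 77.9 and 43.1 TPM in the young WT mice. The ranges met at old WT mouse 1 and young KO mouse 2, and the old KO mice were lowest. Ripk1, the kinase and scaffold of the Tnf receptor complex, had 23.1 and 31.0 TPM in the old KO mice and 42.9 and 42.7 TPM in the young KO mice, against 55.0 and 45.1 TPM in the old WT mice and 77.2 and 45.5 TPM in the young WT mice. Birc2, a ligase that ubiquitinates Ripk1, had 19.6 and 31.1 TPM in the old KO mice and 47.8 and 27.4 TPM in the young KO mice, against 41.6 and 52.0 TPM in the old WT mice and 71.2 and 31.7 TPM in the young WT mice. Birc3, its close relative, had 21.1 and 27.5 TPM in the old KO mice and 34.4 and 34.1 TPM in the young KO mice, against 43.7 and 39.5 TPM in the old WT mice and 47.6 and 41.1 TPM in the young WT mice. KO and WT did not overlap for Ripk1 and Birc3, and overlapped for Birc2 through young KO mouse 1. Fold changes were -0.66 (SE 0.16, edgeR adjusted p = 0.032) for Tnfrsf1b, -0.56 (SE 0.15, edgeR adjusted p = 0.0411) for Ripk1, -0.63 (SE 0.15, edgeR adjusted p = 0.0287) for Birc2 and -0.53 (SE 0.14, edgeR adjusted p = 0.0416) for Birc3. Not called were Traf2, Traf3 and Traf6 with -0.39, -0.37 and -0.61, Tradd with -0.19 and the first Tnf receptor, Tnfrsf1a, with -0.01.

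In the Myd88 and Irak group 2 of 5 genes fell. Irak3, a restraint on Toll-like receptor signalling, had 21.5 and 24.2 TPM in the old KO mice and 29.1 and 28.3 TPM in the young KO mice, against 42.6 and 46.9 TPM in the old WT mice and 49.3 and 36.1 TPM in the young WT mice. Irak2, a kinase of sustained signalling, had 8.13 and 7.46 TPM in the old KO mice and 12.2 and 14.6 TPM in the young KO mice, against 15.6 and 17.0 TPM in the old WT mice and 20.3 and 16.7 TPM in the young WT mice. At the gene level all 4 KO mice were below all 4 WT mice for both genes. Over coding transcripts alone Irak2 overlapped, with 12.7 TPM in young KO mouse 2 and 12.5 TPM in old WT mouse 1. The fold changes were -0.61 (SE 0.14, edgeR adjusted p = 0.0294) for Irak3 and -0.74 (SE 0.21, edgeR adjusted p = 0.0457) for Irak2. Irak1, first by mean gene-level TPM but not told apart from Nfkbia, also had all KO mice below all WT mice at the gene level. Coding transcripts of Irak1 averaged 126 TPM in KO and 179 TPM in WT mice, and those of Nfkbia 210 TPM in KO and 197 TPM in WT mice. Irak1 had a log2 fold change of -0.37 (SE 0.12, edgeR adjusted p = 0.0669), while Myd88 had -0.32 and Irak4 -0.04. Tnfaip2, a Tnf-induced gene with no core function in the pathway, had -0.08.

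In all, 9 of the 42 members had every KO mouse below every WT mouse (Ikbke, Traf1, Cyld, Map3k7, Ripk1, Birc3, Irak1, Irak2 and Irak3), and 0 had the reverse. Such a pattern was found in 8.08% of all genes tested and in 15.4% of the protein-coding genes with at least 2 TPM. These are gene-level values, and over coding transcripts alone Irak1, Irak2 and Map3k7 no longer separated. Ikbkb and Tnip2, which overlapped at the gene level, did separate over coding transcripts. The closest mice had 47.0 TPM (young KO mouse 2) and 48.6 TPM (young WT mouse 2) for Ikbkb. For Tnip2 they had 39.6 TPM (young KO mouse 1) and 47.7 TPM (old WT mouse 2). Coding transcripts of Irak1 had 162 TPM in young KO mouse 2 and 155 TPM in old WT mouse 2. Those of Map3k7 had 14.2 TPM in young KO mouse 1 and 13.2 TPM in young WT mouse 2. Within litters, 26 members were lower in the KO mouse in all 4 pairs, a pattern shared by 24.2% of all genes and 45.2% of those protein-coding genes. Of these 26, Traf1 had the largest drop in its least affected litter, with log2 ratios of -1.13, -1.60, -0.97 and -1.20 in litters 1 to 4. Tnfaip3, which is not among them, had -1.001, -1.19, 0.10 and -1.72.

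**Figure D3:**
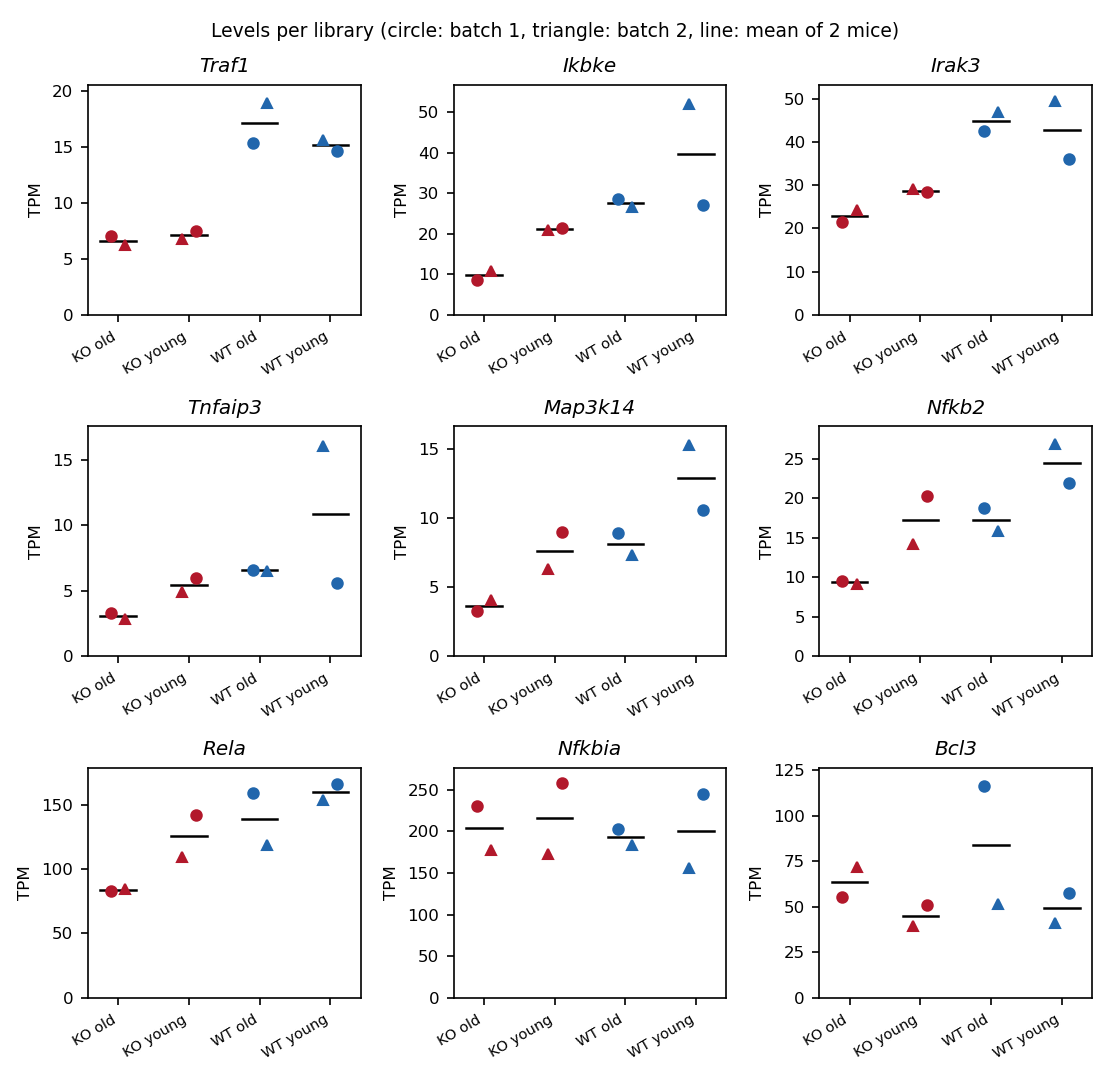
TPM of 9 genes in each mouse, with KO left of WT and circles for batch 1, triangles for batch 2 and lines for the mean of 2 mice. Traf1 separates KO from WT at both ages, Ikbke is lowest in old KO mice, and Bcl3 is highest in old WT mouse 1.

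The number of calls rested on few mice. Without old KO mouse 1 or young KO mouse 1 the count was 2, without old KO mouse 2 or old WT mouse 2 it was 0, without old WT mouse 1 or young WT mouse 1 it was 1, without young KO mouse 2 it was 22 and without young WT mouse 2 it was 20. With litter as a block it was 2, without litter 1 it was 0, in batch 1 alone it was 0 and in batch 2 alone 19. The share of all genes called moved the same way: it was 17.6% without young KO mouse 2, 18.7% without young WT mouse 2 and 26.7% in batch 2 alone, and 0.54% to 4.55% in the other 9 of these analyses. The 2 calls left under the litter block were Traf1 and Ikbke (edgeR adjusted p = 0.0368 for each). The 12 called fold changes were negative in each batch, from -0.87 to -0.37 in batch 1 and from -1.44 to -0.61 in batch 2. They were called in a fit to these same mice, so the shared sign is no separate support. Of all members 37 were negative in batch 1 and 38 in batch 2. Traf1 passed in 17 of 21 alternative analyses, and missed without old KO mouse 2 (0.0695), without old WT mouse 2 (0.06), without litter 1 (0.0684) and in batch 1 alone (0.444). Ikbke passed in 15 of 21, and missed in those same 4 and without old WT mouse 1 (0.0517) or young WT mouse 1 (0.0542).

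Transcript length moved with genotype and with the members. Among the protein-coding genes with at least 2 TPM, the shortest 10%, with a median effective length of 478 bases, had a median fold change of 0.42 in KO over WT, and the longest 10%, with 4910 bases, had -0.44. Members were longer than that background, with a median of 2433 against 1990 bases. Across genes, which are not independent replicates, Spearman's rho of fold change on length was -0.58 in the background and -0.46 in the 42 members. With a smooth length trend removed from each library, 2 members fell, Ikbke (log2 fold change -0.62, edgeR adjusted p = 0.0273) and Traf1 (-0.94, edgeR adjusted p = 0.018). That is 4.76% of the members, close to the 5.49% of protein-coding genes called lower in the same fit, where 2.71% of all genes were. Fold changes remained negative for 35 of the 42 (83.3%), against 56.7% of the background, with medians of -0.20 and -0.05.

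**Figure D4:**
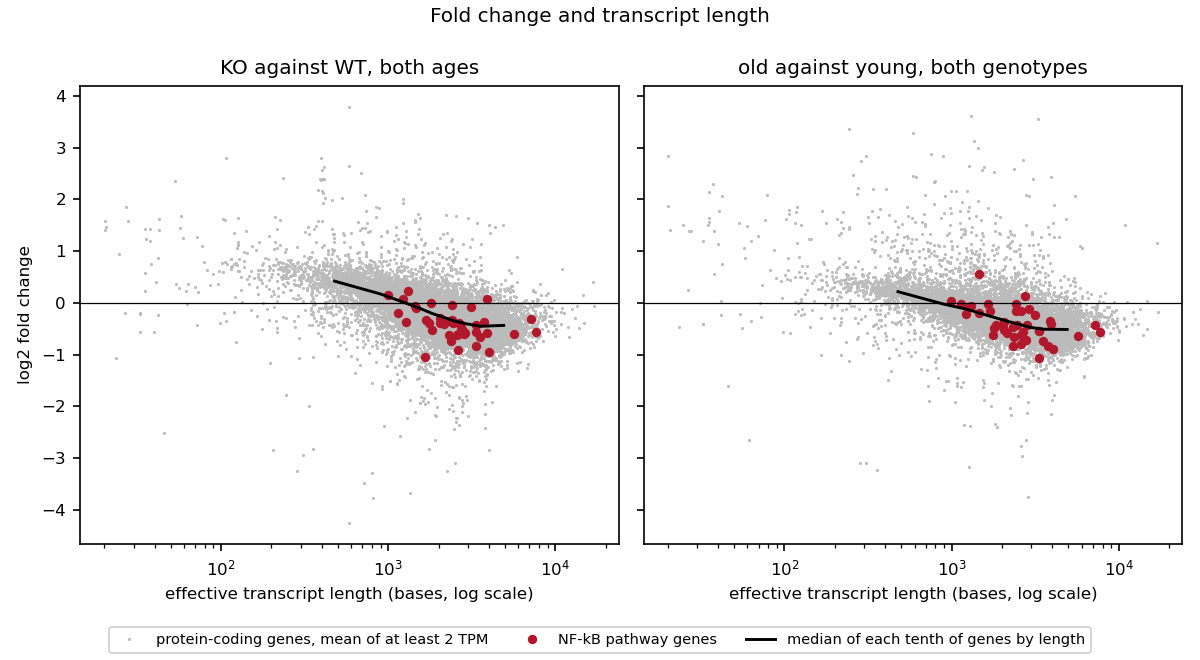
Log2 fold change against effective transcript length (bases, log scale) for 11279 protein-coding genes with a mean of at least 2 TPM in grey and the 42 NF-kB pathway genes in red, KO over WT on the left and old over young on the right. The black line, the median in 10 equal groups of genes by length, runs from 0.42 to -0.44 on the left and from 0.22 to -0.52 on the right.

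Markers of other cells moved with genotype as well. Of 10 erythroid markers 8 fell and none rose in KO, 0 of 12 neutrophil markers passed, and 2 of 15 monocyte, macrophage and dendritic markers rose and none fell. In the LSK list 2 of 10 genes rose and 4 fell. No B-cell or T and NK marker passed, and 2 of 9 stroma and endothelial markers fell. The part of these cells, and of transcript length, in the members' fold changes was not tested beyond the values given.

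Within one age, 2 KO mice against 2 WT mice left 0 calls among the members at either age. In old mice 0.65% of all genes were called, the median of the members was -0.53, 38 of 42 were negative (69.3% of the protein-coding background) and 22 had p under 0.05 without adjustment, as had 21.2% of all genes. DESeq2 called 19 members and 13.1% of all genes in old mice, and limma 11 members and 6.08% of all genes. Ikbke came closest, with a log2 fold change of -1.11 (SE 0.24, edgeR adjusted p = 0.0596), then Birc2 with -0.86 (SE 0.20, 0.0649) and Traf1 with -1.16 (SE 0.30, 0.0767). In young mice 0.0626% of all genes were called, the members' median was -0.31, 34 were negative (64.6% of the background) and 6 had p under 0.05 without adjustment, as had 9.46% of all genes. In young mice DESeq2 called 1 member and 1.52% of all genes, and limma 0 members and 0.0% of all genes. Traf1 again led, with -0.95 (SE 0.30, edgeR adjusted p = 0.444), then Ikbke with -0.70 (SE 0.24, 0.477). The difference between the 2 ages was itself tested: the genotype by age interaction gave 0 calls among the members with edgeR, DESeq2 and limma, against 0.00391% of all genes with edgeR, so at 2 mice a group this test leaves the difference undecided. Interaction values were negative for 34 of 42 members with a median of -0.17, against 62.1% negative and a median of -0.08 among the protein-coding background and a median of -0.01 over all genes. Only Tnip3 had an interaction p under 0.05 without adjustment (log2 -0.79, SE 0.35, edgeR adjusted p = 1). Without young WT mouse 1 the count of calls in old mice became 22, without young WT mouse 2 it was 11, without young KO mouse 1 it was 4 and without young KO mouse 2 it was 1, although these mice stand on neither side of that contrast; over all genes 12.1%, 7.67%, 4.41% and 2.01% were called in the same order. Without young WT mouse 2 the young mice gave 5 calls, with 3.74% of all genes called.

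Old against young was compared over both genotypes in the same 8 mice, so its values are not independent of those for genotype. Litters 1 and 2 were old and litters 3 and 4 young, each with a KO and a WT mouse. Litter is therefore nested in age, so it could not be a block and its effect cannot be told apart from that of age. The test and the SD count littermates as separate mice. In LSK cells of old mice 18 members fell, 1 rose and 23 did not pass (edgeR, adjusted p under 0.05). The genes that fell were the receptors Tnfrsf1a and Tnfrsf1b, the adaptors and kinases Traf2, Traf3, Traf6, Ripk1, Irak1, Map3k7, Tab1, Map3k14, Ikbke and Ikbkg, the subunits Nfkb2 and Rela and the inhibitors Nfkbie, Tnfaip3, Tnip1 and Cyld. The gene that rose was Bcl3. Over all genes 13.9% were called, 9.61% as lower and 4.34% as higher, and among protein-coding genes with at least 2 TPM 21.1% were called lower and 1.61% higher. The members' 42.9% called lower stood against that background. Negative fold changes were seen for 39 of 42 with a median of -0.43, against 78.2% and a median of -0.28 in the background and a median of 0.15 over all genes. Without an adjustment 25 members had p under 0.05, as did 37.3% of all genes. DESeq2 called 24 members lower and 1 higher, with 15.6% of all genes called lower. On log2(TPM + 1), limma called 0 members and 0.0235% of all genes lower, with 18 members and 32.8% of all genes at p under 0.05 before adjustment.

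By role, 2 of 5 Rel subunits fell. Nfkb2 averaged 13.3 ± 4.71 TPM in old and 20.8 ± 5.25 TPM in young mice (SD, n = 4 each), with a log2 fold change of -0.72 (SE 0.16, edgeR adjusted p = 0.0261). Rela averaged 111 ± 35.9 TPM in old and 142 ± 24.5 TPM in young mice (SD, n = 4 each), with a log2 fold change of -0.43 (SE 0.12, edgeR adjusted p = 0.0396). Both old WT mice lay among the young mice for each gene, so the age groups overlapped, and both old KO mice lay below all young mice. Relb and Nfkb1 had -0.61 and -0.37, which did not pass, and Rel had -0.43.

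Of the 6 IkB genes 1 fell and 1 rose. Nfkbie, an inhibitor of Rela and Rel dimers, had 27.1 and 26.7 TPM in the old KO mice and 52.7 and 45.3 TPM in the old WT mice, against 44.0 and 53.9 TPM in the young KO mice and 57.0 and 59.7 TPM in the young WT mice. Both old KO mice were far below the other 6, and the fold change was -0.59 (SE 0.15, edgeR adjusted p = 0.0307). Bcl3, which can act as a co-activator with p50 and p52, had 55.2 and 71.5 TPM in the old KO mice and 116 and 51.7 TPM in the old WT mice, against 39.2 and 50.8 TPM in the young KO mice and 41.0 and 57.7 TPM in the young WT mice. Old WT mouse 1 stood alone at the top, old KO mouse 2 also exceeded every young mouse, and the other 2 old mice overlapped with the young ones. The fold change was 0.55 (SE 0.17, edgeR adjusted p = 0.0477), and it was lost in 16 of 20 alternative analyses, among them those without old WT mouse 1 (0.222) and with the length trend removed (0.0603). Nfkbia had a log2 fold change of -0.07 (SE 0.15, edgeR adjusted p = 0.755), a value whose sign turned in 4 alternative analyses.

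In the A20 group 3 of 6 genes fell. Tnip1, which links A20 to its targets, had 25.8 and 19.8 TPM in the old KO mice and 36.6 and 34.7 TPM in the old WT mice, against 32.1 and 57.6 TPM in the young KO mice and 49.7 and 56.1 TPM in the young WT mice. Both old KO mice lay below every young mouse, and both old WT mice lay below every young mouse but young KO mouse 1. Tnip1 had a log2 fold change of -0.83 (SE 0.17, edgeR adjusted p = 0.0237). Cyld, the deubiquitinase, had 6.30 and 8.82 TPM in the old KO mice and 12.1 and 13.1 TPM in the old WT mice, against 11.1 and 11.0 TPM in the young KO mice and 25.5 and 11.6 TPM in the young WT mice. Apart from young WT mouse 1 the young mice lay below both old WT mice and above both old KO mice. Cyld had a log2 fold change of -0.57 (SE 0.16, edgeR adjusted p = 0.0431) and Tnfaip3 a log2 fold change of -0.89 (SE 0.25, edgeR adjusted p = 0.0427).

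The kinase group had 5 of 9 genes lower in old mice. Map3k14 averaged 5.90 ± 2.68 TPM in old and 10.3 ± 3.77 TPM in young mice (SD, n = 4 each) and had the most negative fold change of the 42, -1.07 (SE 0.20, edgeR adjusted p = 0.0208). Ikbke averaged 18.6 ± 10.3 TPM in old and 30.3 ± 14.7 TPM in young mice (SD, n = 4 each), with a log2 fold change of -0.79 (SE 0.17, edgeR adjusted p = 0.0238). Ikbkg had a log2 fold change of -0.63 (SE 0.17, edgeR adjusted p = 0.0361). Tab1, which activates Map3k7, had 19.1 and 22.3 TPM in the old KO mice and 35.6 and 26.3 TPM in the old WT mice, against 26.0 and 34.7 TPM in the young KO mice and 45.8 and 40.1 TPM in the young WT mice. Map3k7, the kinase TAK1, had 13.0 and 22.9 TPM in the old KO mice and 29.0 and 26.2 TPM in the old WT mice, against 23.6 and 22.6 TPM in the young KO mice and 39.9 and 25.1 TPM in the young WT mice. Old and young ranges overlapped for both genes, and old KO mouse 1 was the lowest library. The fold changes were -0.56 (SE 0.14, edgeR adjusted p = 0.0306) for Tab1 and -0.54 (SE 0.16, edgeR adjusted p = 0.0466) for Map3k7. Ikbkb had -0.43, Chuk -0.16, Tab2 -0.35 and Tab3 -0.42, all without a call.

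Of the 10 Tnf receptor, Traf and Birc genes 6 fell. Traf3, which keeps Map3k14 low in resting cells, had 6.33 and 6.57 TPM in the old KO mice and 8.71 and 5.91 TPM in the old WT mice, against 8.54 and 8.26 TPM in the young KO mice and 12.1 and 8.27 TPM in the young WT mice. Old WT mouse 1 lay among the young mice and the other 3 old mice below them. The fold change was -0.84 (SE 0.20, edgeR adjusted p = 0.0296), in the same direction as that of Map3k14. Tnfrsf1a, the first Tnf receptor, had 78.1 and 64.2 TPM in the old KO mice and 99.6 and 82.7 TPM in the old WT mice, against 96.1 and 126 TPM in the young KO mice and 91.1 and 131 TPM in the young WT mice. Traf2, the adaptor that recruits the Birc ligases, had 43.7 and 46.2 TPM in the old KO mice and 87.6 and 66.0 TPM in the old WT mice, against 65.1 and 77.8 TPM in the young KO mice and 82.2 and 91.5 TPM in the young WT mice. Traf6, the ligase of the Toll-like receptor branch, had 5.43 and 8.39 TPM in the old KO mice and 11.7 and 12.1 TPM in the old WT mice, against 11.1 and 9.96 TPM in the young KO mice and 26.9 and 9.76 TPM in the young WT mice. In each of these 3 genes old WT mouse 1 overlapped with the young mice, and both old KO mice lay below every young mouse. Fold changes were -0.48 (SE 0.14, edgeR adjusted p = 0.042) for Tnfrsf1a, -0.46 (SE 0.13, edgeR adjusted p = 0.0386) for Traf2, -0.64 (SE 0.18, edgeR adjusted p = 0.0441) for Traf6, -0.73 (SE 0.16, edgeR adjusted p = 0.0251) for Tnfrsf1b and -0.54 (SE 0.15, edgeR adjusted p = 0.0404) for Ripk1. Traf1, the leading gene by genotype, had -0.03 by age.

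In the Myd88 and Irak group 1 of 5 genes fell. Irak1, the kinase that passes the signal to Traf6, had 116 and 144 TPM in the old KO mice and 232 and 239 TPM in the old WT mice, against 224 and 207 TPM in the young KO mice and 340.0 and 239 TPM in the young WT mice. Old WT mice lay among the young mice, and the old KO mice below. Irak1 had a log2 fold change of -0.52 (SE 0.12, edgeR adjusted p = 0.0261). Irak2 had -0.66, Irak3 -0.16, Irak4 -0.03 and Myd88 -0.17.

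For 0 of the 42 members did all old mice lie on one side of all young mice, a pattern seen as lower in 1.41% of all genes and 2.56% of the protein-coding background. The count of calls was 0 without old KO mouse 1, old KO mouse 2, young KO mouse 2 or young WT mouse 1, 1 without old WT mouse 1, 10 without young KO mouse 1, 12 without old WT mouse 2 and 23 without young WT mouse 2. It was 0 without batch in the model or without litter 1, the litter with Xist, 2 in batch 1 alone (Tnip1 and Map3k14) and 6 in batch 2 alone. Over all genes 12.2% were called without young KO mouse 1, 15.4% without old WT mouse 2, 19.3% without young WT mouse 2, 10.7% in batch 1 alone and 7.36% in batch 2 alone, and 0.0783% to 1.54% in the other 7 of these analyses. The 18 lower fold changes were negative in each batch, from -1.10 to -0.45 in batch 1 and from -1.05 to -0.31 in batch 2. They too were called in a fit to these same mice, so the shared sign is no separate support. Of all members 40 were negative in batch 1 and 34 in batch 2. Length moved with age too, since the shortest 10% of background genes had a median fold change of 0.22 and the longest 10% had -0.52, with Spearman's rho across genes of -0.59 in the background and -0.51 in the members. With the length trend removed 5 members fell (Map3k14, Tnip1, Ikbke, Tnfrsf1b and Irak1), 11.9% of the members against 5.96% of the protein-coding background and 2.78% of all genes, and the medians were -0.24 and -0.14. Of 10 erythroid markers 7 fell with age, and 1 of 12 neutrophil markers, 1 of 10 B-cell markers and 2 of 10 T and NK markers fell. Of the LSK markers 5 of 10 fell, none of 15 monocyte, macrophage and dendritic markers passed, and 1 of 9 stroma and endothelial markers rose; the part of these cells was not tested.

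Within one genotype, with 2 mice a side, 0 members were called by age, and 0.0861% of all genes were called in KO and 0.0861% in WT mice. The medians of the members were -0.55 in KO mice and -0.31 in WT mice, with 25 members in KO and 11 in WT mice at p under 0.05 before adjustment, against 24.4% of all genes in KO and 13.9% in WT mice. DESeq2 called 16 members and 13.9% of all genes in KO mice, and 1 member and 1.54% of all genes in WT mice. With limma 0 members were called in each, beside 0.0157% of all genes in KO and 0.00783% in WT mice. The lowest adjusted p in KO mice were those of Nfkbie (log2 fold change -0.84, SE 0.20) and Ikbke (-1.004, SE 0.24), both at an edgeR adjusted p of 0.111. In WT mice the lowest was that of Map3k14 (-1.03, SE 0.30, edgeR adjusted p = 0.319). The counts became 21 in KO mice without young WT mouse 1 (10.9% of all genes), 11 without young WT mouse 2 (5.82%) and 6 without young KO mouse 1 (3.94%), and 7 in WT mice without young WT mouse 2 (4.33%).

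Most genes were carried by a protein-coding transcript. For all but 1 of the 42 the transcript with the highest mean TPM was coding. The exception was Nfkb1, for which a retained-intron transcript (ENSMUST00000129428) held 61.8% of the gene's TPM and coding transcripts 16.4%. Coding transcripts of Nfkb1 summed to 12.2, 19.5, 14.7 and 19.7 TPM in the KO libraries, against 14.6, 21.8, 30.9 and 19.7 TPM in the WT libraries, in the order old 1, old 2, young 1 and young 2, so the groups overlapped. Traf1 was split between the coding ENSMUST00000028234, at 1.72, 1.49, 2.81 and 2.41 TPM in the KO libraries against 5.28, 5.49, 5.76 and 7.03 TPM in the WT libraries, and the non-coding ENSMUST00000129131, at 3.12, 2.22, 2.36 and 3.17 TPM in KO against 5.17, 6.26, 4.46 and 4.83 TPM in WT. Both were lower in every KO library than in every WT library. Relb counts were split between near-identical transcripts, so only its gene sum is used. Exons of 13 members overlap those of another gene, mostly on the opposite strand (Ikbkg with G6pdx and Irak3 with Tmbim4, for example), and since the strand setting of the counting is not given in the sources used here, reads of such neighbours may be counted in either gene.

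The rest of the pathway was described with 3 lists of other genes: NF-kB target genes, receptors and adaptors upstream of the IkB kinases, and other regulators. Their counts stand beside the 14.2% of protein-coding genes with at least 2 TPM called lower in KO and the 3.65% called higher. Over all genes tested these shares were 6.78% and 3.19%, and the lists were not limited to genes of at least 2 TPM. Nothing particular to a list is read from the counts. Of 41 target genes tested among 44 listed, 2 rose (Ccnd1 and Cxcl10), 4 fell (Plek, Csf1, Icam1 and Pim1) and 35 did not pass in KO against WT. Their median was 0.01, next to 0.10 for all genes and -0.20 for those protein-coding genes. Cxcl10, an interferon-induced chemokine, averaged 6.73 ± 2.31 TPM in KO and 2.26 ± 1.22 TPM in WT mice (log2 fold change 1.83, SE 0.44, edgeR adjusted p = 0.0316), and every KO mouse exceeded every WT mouse. Plek, a platelet and leukocyte signalling protein, averaged 19.6 ± 3.74 TPM in KO and 63.5 ± 16.7 TPM in WT mice (-1.53, SE 0.16, edgeR adjusted p = 0.00151). Csf1, the macrophage growth factor, averaged 1.98 ± 0.49 TPM in KO and 4.94 ± 0.54 TPM in WT mice (-1.41, SE 0.22, edgeR adjusted p = 0.0108). Of 42 receptors and adaptors tested among 43, 2 rose (Traf5 and Card9) and 7 fell, with a median of -0.32. Nod1, a sensor of bacterial cell wall, averaged 6.34 ± 1.02 TPM in KO and 13.2 ± 3.34 TPM in WT mice (-1.27, SE 0.19, edgeR adjusted p = 0.00887), without overlap. Card9, an adaptor for fungal sensors, averaged 12.4 ± 4.30 TPM in KO and 7.98 ± 0.99 TPM in WT mice (0.91, SE 0.23, edgeR adjusted p = 0.0333), and the groups overlapped at old WT mouse 1. Traf5, another Traf adaptor, averaged 69.5 ± 13.7 TPM in KO and 57.3 ± 14.7 TPM in WT mice, which overlapped. Its fold change on counts, 0.87 (SE 0.18, edgeR adjusted p = 0.023), was larger than this difference in TPM. Of 31 other regulators, 6 fell and 0 rose, with a median of -0.37. The restraining protein Nlrx1 averaged 3.20 ± 1.47 TPM in KO and 7.74 ± 2.46 TPM in WT mice (-1.19, SE 0.23, edgeR adjusted p = 0.017), without overlap. The ubiquitin ligase Itch averaged 19.9 ± 4.43 TPM in KO and 32.1 ± 14.0 TPM in WT mice (-0.76, SE 0.18, edgeR adjusted p = 0.0313), and Fbxw11, which recognises marked IkB, 37.8 ± 12.2 TPM in KO and 64.8 ± 24.1 TPM in WT mice (-0.63, SE 0.16, edgeR adjusted p = 0.0337); both overlapped. With the length trend removed Plek, Csf1, Nod1, Nlrx1, Card9 and Traf5 still passed, while Cxcl10 (0.053), Itch (0.0773) and Fbxw11 (0.106) did not.

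By age, 4 target genes rose (Cxcl1, Il6, Cd40 and Ier3), 4 fell (Mmp9, Cd83, Icam1 and Bcl2l1) and 33 did not pass. Their median was 0.05, against 0.15 for all genes and -0.28 for the protein-coding genes with at least 2 TPM. Of those protein-coding genes 21.1% were called lower and 1.61% higher by age, and of all genes tested 9.61% and 4.34%. The counts in this paragraph stand beside both, since the lists were not limited to genes of at least 2 TPM. Mmp9, a protease that mature neutrophils also carry and that is on the neutrophil marker list, averaged 1.73 ± 3.07 TPM in old and 5.44 ± 3.75 TPM in young mice (log2 fold change -2.97, SE 0.71, edgeR adjusted p = 0.0285), and old WT mouse 2 alone among the old mice was within the young range. Cd83, a surface protein of activated cells, averaged 0.602 ± 0.46 TPM in old and 2.44 ± 1.39 TPM in young mice (-2.14, SE 0.40, edgeR adjusted p = 0.0208). Cd40, a receptor on both the target and the receptor list, averaged 6.05 ± 4.78 TPM in old and 1.06 ± 0.82 TPM in young mice (1.63, SE 0.41, edgeR adjusted p = 0.0323), with 10.7 TPM in old KO mouse 2 and 9.60 TPM in old WT mouse 1 but 1.09 TPM in old KO mouse 1. Among receptors and adaptors 1 rose (Cd40) and 9 fell, with a median of -0.33. Tnfrsf13c, the receptor for the B-cell survival factor Baff, had 15.7 and 20.6 TPM in the old KO mice and 18.0 and 24.7 TPM in the old WT mice, against 38.5 and 35.3 TPM in the young KO mice and 31.7 and 37.0 TPM in the young WT mice. All old mice lay below all young mice (-0.90, SE 0.18, edgeR adjusted p = 0.0219), and the call held with the length trend removed (-0.79, edgeR adjusted p = 0.0283). Tlr7, a sensor of single-stranded RNA, averaged 2.81 ± 0.41 TPM in old and 3.81 ± 1.22 TPM in young mice (-0.82, SE 0.23, edgeR adjusted p = 0.0395). Of the other regulators 7 fell and 0 rose, with a median of -0.39, among them Nlrx1, at 4.15 ± 2.61 TPM in old and 6.80 ± 3.24 TPM in young mice (-0.88, SE 0.22, edgeR adjusted p = 0.0322). Nlrc3, a restraint on Traf6 signalling, averaged 6.39 ± 2.27 TPM in old and 11.0 ± 5.19 TPM in young mice (-0.85, SE 0.19, edgeR adjusted p = 0.0264), and Fbxw11 39.7 ± 13.5 TPM in old and 62.9 ± 25.9 TPM in young mice (-0.76, SE 0.16, edgeR adjusted p = 0.0227). With the length trend removed Cd83, Tnfrsf13c, Nlrc3 and Fbxw11 still passed, while Mmp9 (0.0593), Cd40 (0.0542), Tlr7 (0.0894) and Nlrx1 (0.0755) did not.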

How the data were processed

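LSK cells of 8 mice were profiled by RNA sequencing (polyA RNA, RNeasy Micro extraction and SMART-Seq v4 libraries, per the labels' protocols). The submitters' processing notes name kallisto, DESeq2 and the mm10 build, without versions. The authors deposited, per the file headers, estimated counts, TPM, length and effective length for each of 115088 transcripts. Transcripts were matched to GENCODE vM21 identifiers of the same build: 114200 matched, and the 888 left out held 0.259% to 0.47% of a library's estimated counts. For each gene the estimated counts of its transcripts were added up, then rounded to whole numbers for the tests, and so were TPM, without rounding.

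Genes passed edgeR's filterByExpr (minimum count 10, minimum total 15; 25543 genes, all 42 members among them). Counts were scaled by TMM and tested with the edgeR 4.0.16 quasi-likelihood F test in R 4.3.3, with Benjamini-Hochberg adjustment over all 25543 genes and 0.05 as threshold. Genotype over both ages and age over both genotypes were fitted with terms for genotype, age and batch, which left 4 residual degrees of freedom (common dispersion 0.134). The other 5 of the 7 comparisons came from a model of 4 groups and batch (3 degrees, 0.141). Fold changes are on the log2 scale, with KO divided by WT and old by young, and SE is that of the fit. Members were described as counts and medians beside the same over all genes, with no test of the list.

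Alternatives were relative log expression size factors, DESeq2 1.42.0, no count filter, limma 3.58.1 on log2(TPM + 1), on log2(TPM + 0.1) and on genes with a mean of at least 1 TPM, a length trend removed per library (natural spline on log2 effective length), an isoform length offset, no batch term, litter as a replicate block, each mouse left out, litter 1 left out and each batch alone. The labels pair KO and WT mice as littermates, so litter, and not the replicate number, is the block for genotype. Litter is nested in age and could not be a block for age. A replicate number here only names a mouse. Tables and figures were made in Python 3.11.15 with matplotlib 3.10.9, numpy 2.4.6 and pandas 2.3.3.

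The members, gene lists and tests were chosen with earlier results of these data known. Members named with every value are 10 core members and each member past the threshold in any comparison. From each of the 3 further lists, in each of the 2 comparisons over all 8 mice, up to 3 genes with the largest called change and at least 2 TPM in the higher group are named, most of them with group means and SD (n = 4 each). The p-values measure only the spread between these 8 mice, and at this depth counting error is small beside it.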

Additional observations from a re-analysis of the deposited data

Results flagged for a closer look

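With 2 mice a group, single libraries were looked at among the 4 mice of one genotype or one age, by the gap of the highest or lowest mouse to the next as a share of the range (above Dixon's critical value for 4 samples). Of 168 such groups 20 stood out. The rate of about 1 in 20 for independent sets of 4 like mice does not apply, because these groups mix ages or genotypes and share libraries across genes. In 14 of the 20 groups that stood out the high library was young WT mouse 1. It was the highest of the WT mice, and of the young mice, for Tnfaip3 at 16.1 TPM, Cyld at 25.5 TPM and Traf6 at 26.9 TPM. It was the highest of the WT mice for Ikbke at 51.9 TPM, Tnfrsf1b at 77.9 TPM and Irak1 at 340.0 TPM. It was the highest of the young mice for Ikbkb at 138 TPM, Map3k7 at 39.9 TPM, Tab3 at 6.18 TPM, Ripk1 at 77.2 TPM and Traf3 at 12.1 TPM. This library also had the flattest slope of level on transcript length (-0.25) and the highest sums of erythroid markers (1299 TPM) and LSK markers (3548 TPM); what part they have in its NF-kB gene levels was not tested.

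The other 6 fell on 5 libraries. Old WT mouse 2 was the lowest WT mouse for Nfkb1 at 108.6 TPM and Relb at 17.4 TPM. Young KO mouse 1 was the highest KO mouse for Tnip3 at 33.5 TPM, and young KO mouse 2 for Otulin at 150.6 TPM. Old KO mouse 1 was the lowest KO mouse for Map3k7 at 13.0 TPM, and young WT mouse 2 was the highest young mouse for Tradd at 141 TPM.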

How the results depend on the processing

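The 12 members called in KO against WT over both ages became 23 with DESeq2, 22 with limma on genes of at least 1 TPM, 2 with the length trend removed, 2 without batch, 2 with litter as a replicate block, 0 without litter 1, 0 in batch 1 and 19 in batch 2; leaving out 1 mouse gave 0 to 22. The 19 called by age over both genotypes became 0 in each of the 3 limma analyses, 5 with the length trend removed, 0 without batch, 0 without litter 1, 2 in batch 1 and 6 in batch 2; leaving out 1 mouse gave 0 to 23. Of the genes tested in each fit, KO against WT over both ages called 24.1% with limma on genes of at least 1 TPM and 1.46% without batch. The other comparisons had 0 member calls in the main fit. Of the genes tested, KO against WT in old mice called 5.95% with no count filter and 6.08%, 4.86% and 15.2% with limma. Age called 6.96% in KO and 2.4% in WT mice with no count filter. The counts that follow are of members. KO against WT in old mice gave 19 with DESeq2, 13 with no count filter, 11, 9 and 14 with limma, and 0 to 22 without 1 mouse; in young mice it gave 1 with DESeq2 and 0 to 5 without 1 mouse. Age gave 16 with DESeq2, 17 with no count filter and 0 to 21 without 1 mouse in KO mice, and 1, 2 and 0 to 7 in WT mice. The replicate block left 0 calls within either age, and the interaction stayed at 0 in every alternative run. Fold changes of called members kept their sign in all alternatives run, which use the mice in which these members were called and so give no separate support. Among uncalled core members, Nfkbia by age (-0.07) ran from -0.22 to 0.0497 without 1 mouse (0.0497 without old WT mouse 1, 0.0113 without young WT mouse 2) and turned to 0.178 without litter 1 and 0.176 in batch 2, and Chuk by age (-0.16) turned to 0.0795 with limma on log2(TPM + 1), with or without the 1 TPM filter, 0.0843 with a pseudocount of 0.1, 0.0822 with the length trend removed and 0.0116 with the isoform offset. The causes were not tested. The lowest estimated count of a member in any library was 265, and each group had 2 mice.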
